A study of Homo sapiens with 4 samples.

Results

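The nucleic acid sensors of innate immunity were followed in HCT116 cells through 8 genes: RIGI, IFIH1, DHX58, TLR3, MAVS, STING1, TBK1 and ADAR. Members were all probe sets (groups of short probes against one transcript) whose only gene symbol in the platform annotation was 1 of these 8. This gave 18 probe sets of 8 genes, among 41091 probe sets of 19775 genes with a single symbol. HCT116 is an established human colon carcinoma line. The study compared untreated HCT116 multicellular spheroids (MCS), with 2 cultures on 2 arrays, and untreated HCT116 monolayers, also with 2 cultures on 2 arrays, to learn how gene expression changes when tumour cells grow in 3D. All 4 cultures were of the same parental line with no gene disrupted and no drug added, and each array holds RNA from whole cultures, so the rim and the core of a spheroid are not separated. In such bulk RNA a change in the number of cells that express a gene and a change in the amount per cell cannot be told apart.

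RIGI (RIG-I) and IFIH1 (MDA5) are cytosolic helicases that bind double-stranded RNA of viral or cellular origin. DHX58 (LGP2) is a related helicase without the signalling domains, and modulates the other two. TLR3 recognizes double-stranded RNA in endosomes. RIGI and IFIH1 signal through MAVS on the outer mitochondrial membrane, and STING1 on the endoplasmic reticulum relays the signal of the DNA sensor cGAS. These routes meet at the kinase TBK1, which activates IRF3 and leads to type I and type III interferon. ADAR edits adenosines in double-stranded RNA, which keeps cellular RNA from being recognized by IFIH1. RIGI, IFIH1, DHX58 and TLR3 are themselves known to be induced by interferon through the interferon-stimulated response element, whose core is a pair of GAAA repeats.

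Start-site sequences from RefSeq (GRCh38.p14) were found for 6 of the 8 members, in windows of 250 bases before to 50 bases after each annotated start. DHX58 and STING1 had no entry. The windows were searched on both strands for GAAANNGAAA, which lies in 3.57% of 35116 such windows, and, after the member sequences had been read, for the shorter spacing GAAANGAAA, which lies in 3.12% of them. The windows of IFIH1 and TLR3 held the first and that of RIGI held the second, whereas those of ADAR (3 starts), MAVS and TBK1 held neither. For these 3 RNA sensors, members known to be induced by interferon, the stretch with the match nearest the start is shown, and capitals mark the matched letters. Because the shorter spacing was chosen after the sequences had been read, the RIGI match is a description only. Whether any of the 3 responds to interferon through the marked letters was not tested.
IFIH1, chr2:162318665-162318804, minus strand: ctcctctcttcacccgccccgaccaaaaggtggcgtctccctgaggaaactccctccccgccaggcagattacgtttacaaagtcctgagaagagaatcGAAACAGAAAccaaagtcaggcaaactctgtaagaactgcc
TLR3, chr4:186069036-186069175, plus strand: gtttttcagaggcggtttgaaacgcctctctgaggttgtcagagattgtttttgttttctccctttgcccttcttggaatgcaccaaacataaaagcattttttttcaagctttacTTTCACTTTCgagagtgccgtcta
RIGI, chr9:32526307-32526446, minus strand: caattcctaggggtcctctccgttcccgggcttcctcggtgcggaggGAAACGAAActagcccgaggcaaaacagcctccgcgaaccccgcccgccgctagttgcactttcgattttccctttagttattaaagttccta
The IFIH1 match begins 21 bases upstream of the start, on the strand of the gene. The TLR3 match begins 4 bases upstream and reads GAAANNGAAA on the opposite strand. The RIGI match begins 203 bases upstream. IFIH1 held 2 more matches of GAAANNGAAA on the opposite strand, at 159 and 153 bases upstream, which overlap each other and lie outside the printed stretch. A match is a run of letters and not a measured binding site.

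The RNA sensors IFIH1 and RIGI were higher in MCS by 12.1-fold and 6.70-fold on their brightest probe sets. The DNA pathway adaptor STING1 and the editor ADAR were higher by less (log2 differences of 0.87 and 0.58, which were 0.060 and -0.28 with the arrays scaled to spike-in controls), the adaptor MAVS and the kinase TBK1 were not called, and TLR3 and DHX58 were too dim for the test across genes. In that test each gene was represented by its brightest probe set among those with a mean over 300 signal units. The study's methods applied 300 units together with present calls, to choose probes for gene set enrichment analysis. The mean over the 4 arrays, without present calls, is a rule set here. The log2(signal + 32) values were compared with limma at an adjusted p under 0.05 over 8721 genes. Of the 8 members 6 were tested, and 4 were higher, 0 lower and 2 not called, where 19.0% of all tested genes were higher and 20.6% lower (39.6% in either direction). At an unadjusted p under 0.05 in limma, 4 were higher and 1 lower, beside 23.0% and 25.1% of all tested genes. The median log2 difference of the 6 was 0.72, and that of all tested genes -0.03. RIGI and IFIH1 passed the threshold only through their spheroid signals, so a count over the members that passed is a description and no support for a direction. Without any threshold, 7 of the 18 member probe sets were higher and 0 lower, where 3.53% of all 54613 probe sets were higher and 2.89% lower (6.42% in either direction), and at an unadjusted p under 0.05 in limma 11 were higher and 1 lower, beside 11.1% and 8.18% of all probe sets. Both spheroid arrays lay above both monolayer arrays for 11 of the 18 and below them for 1, against 27.9% and 19.7% of all probe sets. In the same fit 1685 of the 41091 probe sets with a single symbol were called higher and 1446 lower. These counts over probe sets are a description too, since RIGI and IFIH1 enter with several probe sets each. Members were also chosen with earlier results of these data known. With 2 arrays against 2, the smallest p that an exact permutation test of a single gene can reach is 0.333, so p-values are given only from limma. Each log2 difference is MCS minus monolayer and is given with its standard error (n = 2 each).

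**Figure D1:**
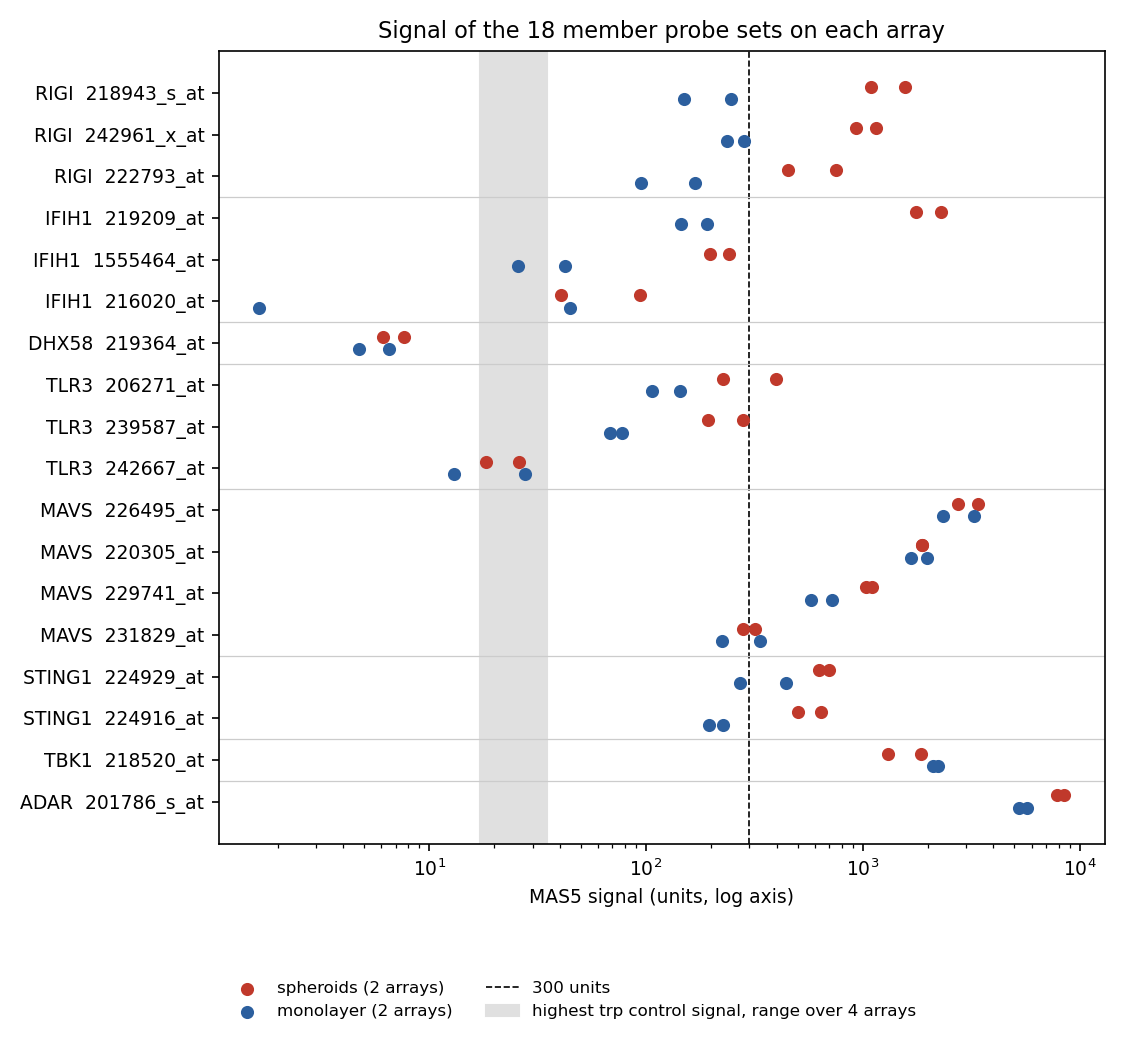
MAS5 signal of each of the 18 member probe sets (rows) on each array (x, log axis), with MCS arrays in red above monolayer arrays in blue, a dashed line at 300 units and a grey band for the highest signal of the trp control probe sets on the 4 arrays (17.2 to 35.0). The spheroid and monolayer points of RIGI lie apart in all 3 rows, those of the first 3 MAVS rows stay over 300 units in both groups, and all 4 points of DHX58 lie below the band.

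IFIH1, the sensor of long double-stranded RNA, had the largest difference of the members. Its probe set 219209_at had signals of 1759 and 2302 in MCS, against 191 and 145 in monolayers. Both spheroid arrays were far above both monolayer arrays, with means of 2031 ± 384 in MCS and 168 ± 32.5 in monolayers (SD, n = 2 each). The log2 difference was 3.36 ± 0.23 (limma, adjusted p = 7.33e-07), the rank 33 among 8721 genes ordered from the largest increase. The second IFIH1 probe set, 1555464_at, had signals of 242 and 197 in MCS and 42.2 and 25.7 in monolayers. It was called in the fit over all probe sets, at 1.94 ± 0.43 (limma, adjusted p = 0.0393), although leaving out any of the 4 arrays ended that call (1.76 to 2.12). The third, 216020_at, had signals of 40.4 and 94.1 in MCS and 44.6 and 1.64 in monolayers. The groups overlapped there and the probe set was not called (0.91 ± 0.54, limma adjusted p = 0.43).

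RIGI, the sensor of short RNA with a 5′ triphosphate end, was higher on all 3 of its probe sets. The brightest, 218943_s_at, had signals of 1092 and 1567 in MCS, against 149 and 247 in monolayers. The groups did not overlap, and the log2 difference was 2.57 ± 0.27 (limma, adjusted p = 2.51e-05), the rank 79 of 8721. Probe set 242961_x_at had signals of 934 and 1146 in MCS and 282 and 237 in monolayers. Probe set 222793_at had signals of 454 and 751 in MCS and 169 and 94.8 in monolayers. The groups did not overlap on either, and these probe sets differed by 1.88 ± 0.21 and 1.95 ± 0.35 in the fit over all probe sets (limma, adjusted p = 0.00347 and 0.0178). The suffixes _x_at and _s_at mark probes that can match other transcripts or several transcripts of a gene, and without all such probe sets RIGI was called at 1.95 (limma, adjusted p = 0.00152). In the fit over all probe sets, leaving out 1 array at a time gave 2.26 to 2.89 for 218943_s_at, not called without spheroid replicate 2 (2.32), and 1.73 to 2.02 for 242961_x_at, not called without either spheroid replicate (2.02 and 1.73). It gave 1.61 to 2.30 for 222793_at, which lost its call with any of the 4 arrays left out. In the test across genes, leaving out 1 array at a time gave 2.26 to 2.89 for RIGI and 3.17 to 3.55 for IFIH1.

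DHX58, the third helicase of the family, could not be measured. Its only probe set, 219364_at, had signals of 7.65 and 6.11 in MCS and 6.54 and 4.73 in monolayers. All 4 values were below the highest signal of the bacterial trp control on their own array (17.2 to 35.0), so no ratio is given.

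TLR3 had signals of 226 and 398 in MCS and 144 and 107 in monolayers on 206271_at, and of 193 and 281 in MCS and 77.5 and 68.3 in monolayers on 239587_at. On both probe sets the spheroid arrays lay above the monolayer arrays. Neither was called in the fit over all probe sets, at 1.09 ± 0.37 and 1.34 ± 0.39 (limma, adjusted p = 0.143 and 0.0945), with 95% intervals of 0.25 to 1.94 and 0.44 to 2.24. With the threshold lowered to a mean of 100 units, TLR3 was called in the test across genes at 1.09 ± 0.34 (limma, adjusted p = 0.0279). The third probe set, 242667_at, had signals of 18.2 and 25.9 in MCS and 13.1 and 27.8 in monolayers, with 1 array of each group below its trp control.

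**Figure D2:**
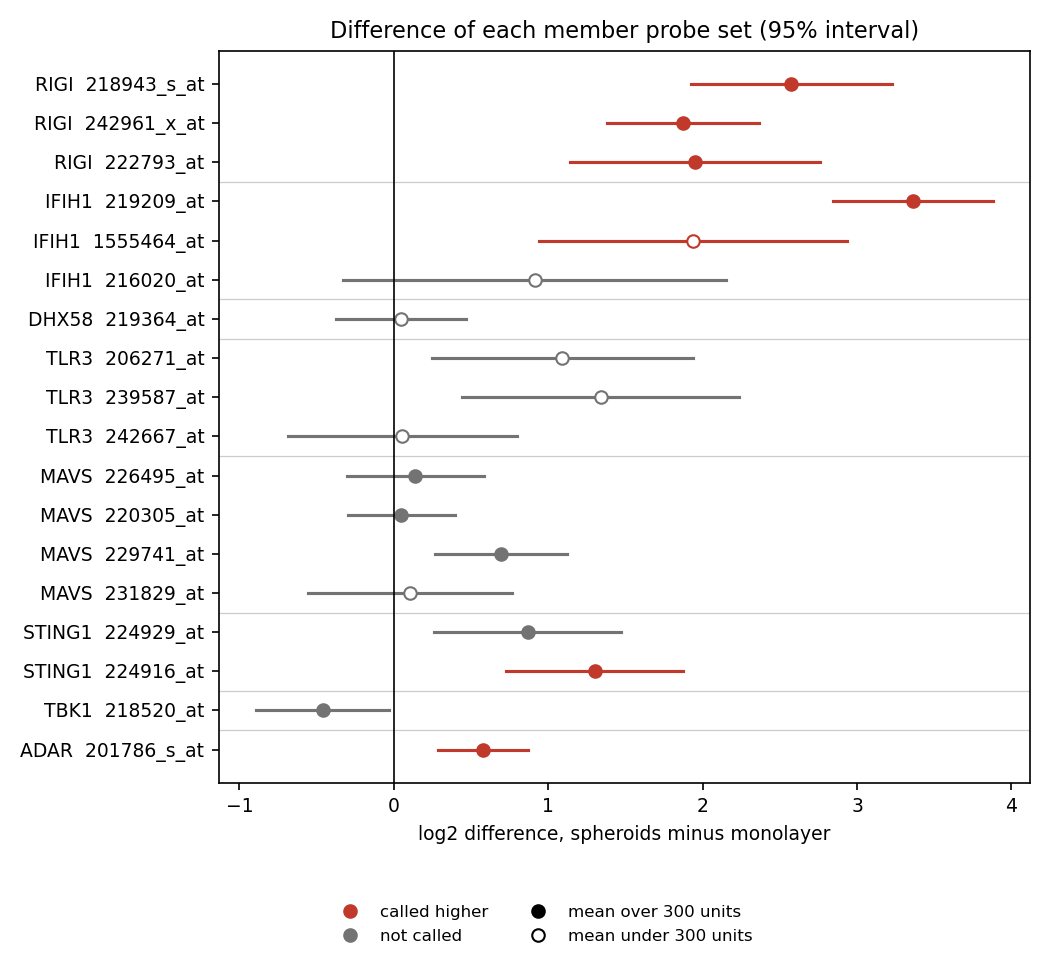
Log2 difference between MCS and monolayers (x) of each of the 18 member probe sets (rows) in the fit over all probe sets, with its 95% interval, red where called higher and grey where not called, and open circles for a mean under 300 units. The 7 red rows are all of RIGI, the first 2 of IFIH1, the second of STING1 and ADAR, the largest is 3.36 for IFIH1 219209_at, and with spike-in scaling the ADAR value fell below 0 (-0.28).

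MAVS, the mitochondrial adaptor of RIGI and IFIH1, was not called. Its brightest probe set, 226495_at, had signals of 3393 and 2743 in MCS and 3266 and 2344 in monolayers. These groups overlapped, with a log2 difference of 0.14 ± 0.19 (limma, adjusted p = 0.581) and a 95% interval of -0.26 to 0.54. Probe set 220305_at had signals of 1870 and 1882 in MCS and 1661 and 1978 in monolayers (0.049 ± 0.15). Probe set 231829_at had signals of 280 and 317 in MCS and 224 and 335 in monolayers (0.10 ± 0.29). One of the 4 MAVS probe sets stood apart from these: 229741_at had signals of 1100 and 1031 in MCS, against 724 and 575 in monolayers. It differed by 0.70 ± 0.18, not called over all probe sets (limma, adjusted p = 0.0713) but called when only probe sets with a mean over 300 units entered that fit (limma, adjusted p = 0.0258). No source used here says which MAVS transcripts each probe set detects.

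STING1, which relays the cGAS signal, was higher in MCS on both probe sets. Probe set 224929_at had signals of 700 and 625 in MCS, against 445 and 271 in monolayers. The log2 difference was 0.87 ± 0.26 (limma, adjusted p = 0.0192), at rank 836 of 8721. Probe set 224916_at had signals of 641 and 503 in MCS, against 196 and 228 in monolayers, and differed by 1.30 ± 0.25 in the fit over all probe sets (limma, adjusted p = 0.0221), where 224929_at was not called (limma, adjusted p = 0.108). The groups did not overlap on either. The gene call of STING1 was lost without monolayer replicate 2 (0.54, limma adjusted p = 0.191), without spheroid replicate 1 (0.79, limma adjusted p = 0.0983) and with no signal threshold (limma, adjusted p = 0.0849), and the call of 224916_at was lost when any of the 4 arrays was left out (1.14 to 1.47).

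TBK1, the kinase on which these routes meet, was the only tested member below 0 in the MAS5 scaling. Its single probe set, 218520_at, had signals of 1307 and 1865 in MCS and 2213 and 2113 in monolayers. Both spheroid arrays lay below both monolayer arrays, as they did for 36.6% of all tested genes, and the spheroid arrays were far apart. The log2 difference was -0.46 ± 0.19 with a 95% interval of -0.88 to -0.047, and it was not called (limma, adjusted p = 0.0729). Without spheroid replicate 2 the difference was -0.71 and was called (limma, adjusted p = 0.0186), and without spheroid replicate 1 it was -0.21.

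ADAR, the RNA editing enzyme, had signals of 7877 and 8515 in MCS, against 5709 and 5255 in monolayers, on its single probe set 201786_s_at. The groups did not overlap, with means of 8196 ± 451 in MCS and 5482 ± 321 in monolayers (SD, n = 2 each). The log2 difference was 0.58 ± 0.13 (limma, adjusted p = 0.00409), at rank 1509 of 8721. In the fit over all probe sets it was also called (limma, adjusted p = 0.0377), but there the call was lost when any of the 4 arrays was left out (0.52 to 0.64). ADAR makes a constitutive and an interferon-inducible form, and the files do not say how the probe set divides between them.

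The order of the tested members by log2 difference was IFIH1, RIGI, STING1, ADAR, MAVS and TBK1. The 95% intervals of IFIH1 (2.86 to 3.87) and RIGI (1.98 to 3.17) overlapped each other, and so did those of STING1 (0.30 to 1.43) and ADAR (0.29 to 0.86). The intervals of RIGI and STING1 did not overlap. The differences between members were not tested.

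The MAS5 values were scaled to one average per array, and the smaller differences depended on that. The Bacillus control probe sets, which detect bacterial RNA usually added in a fixed amount, were 1.82-fold brighter in MCS. No source used here says how much was added. Scaling the arrays to them moved the median of all genes to -0.87. IFIH1 and RIGI remained called higher, at 2.57 ± 0.41 and 1.78 ± 0.42 (limma, adjusted p = 1.46e-07 and 2.86e-04), whereas STING1 was at 0.060, ADAR turned to -0.28, MAVS turned to -0.71, and TBK1 was called lower at -1.31 ± 0.41 (limma, adjusted p = 0.00643). Relative to the median of all genes, the spike-in values were 3.44 for IFIH1, 2.66 for RIGI, 0.93 for STING1, 0.59 for ADAR, 0.16 for MAVS and -0.43 for TBK1. The calls of STING1 and ADAR as higher hold with arrays scaled to an equal average and were not made with spike-in scaling.

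**Figure D3:**
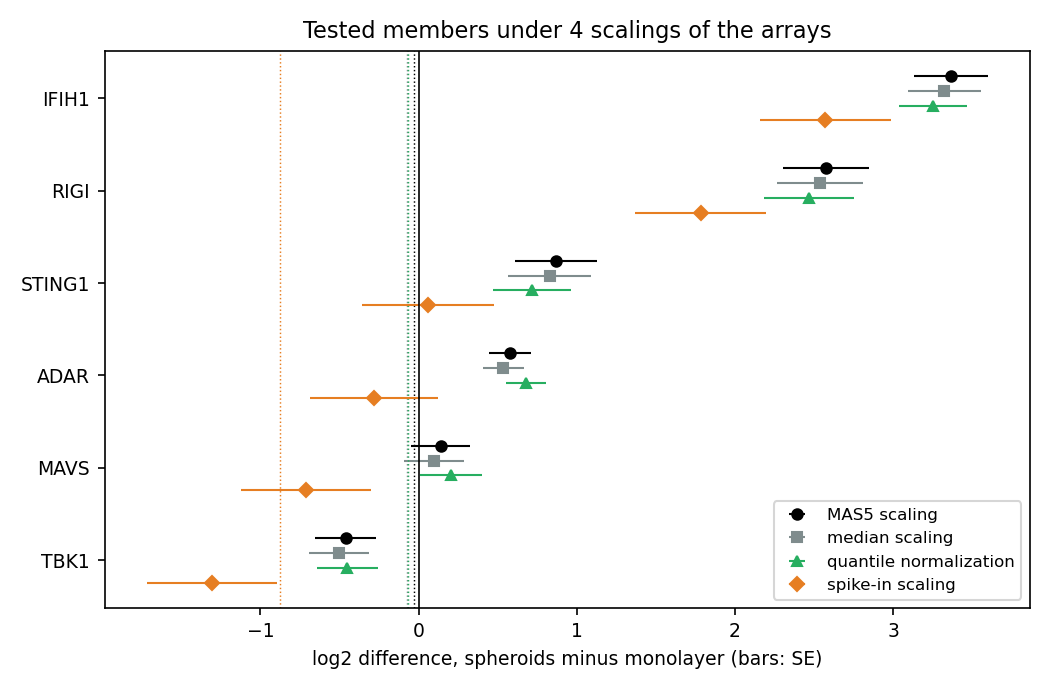
Log2 difference between MCS and monolayers (x, bars are SE) of the 6 tested members (rows) under 4 scalings of the arrays, with a dotted line at the median of all genes for each. With spike-in scaling the median moved to -0.87 and every member moved left with it, while IFIH1 (2.57) and RIGI (1.78) stayed above 0 by more than 4 standard errors.

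The other genes of the sensing pathway were taken from 10 lists by role. Of 86 listed genes 79 had a probe set with a single symbol and 7 were not analysed here. Of the 79, 57 passed the threshold and were tested, and 19 were higher, 11 lower and 27 not called, with a median of 0.22, beside the 19.0% higher and 20.6% lower among all genes. Among the 19, IRF7, IRF9, OAS1 and OASL passed the threshold only through their spheroid signals. This count and median are therefore a description and no support for a direction. Of the 30 called genes, 13 kept their call with each array left out and 17 lost it at least once. With spike-in scaling 18 kept their call, 5 lost it with the same sign and 7 turned in sign. Of 18 called genes with several probe sets, 4 (G3BP1, JAK1, RNASET2 and TRADD) had a probe set of the opposite sign, and 0 had one called in the opposite direction in the fit over all probe sets.

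**Figure D4:**
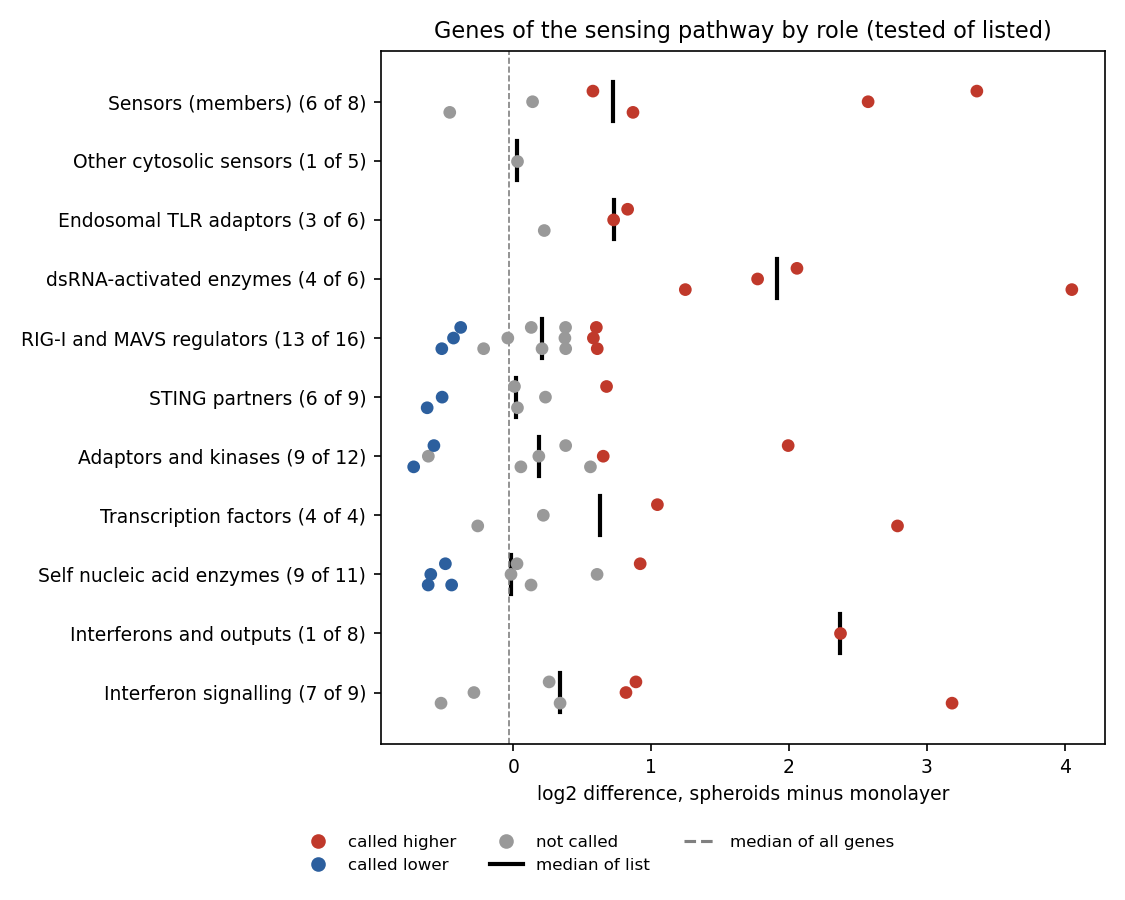
Log2 difference between MCS and monolayers (x) of the tested members and of the tested genes of 10 role lists (rows, tested of listed in brackets). Red points were called higher, blue lower and grey neither, the black bar is each row's median and the dashed line that of all genes (-0.03). The 4 tested genes in the row of double-stranded RNA enzymes (OAS1, OAS3, OASL and EIF2AK2) have a median of 1.92. The outputs row holds only ISG15 (2.37). With spike-in scaling 7 of the red pathway points (MYD88, TRIM25, ZC3HAV1, RNF135, TRIM56, TRADD and IL10RB) fell below 0.

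The list of enzymes switched on by double-stranded RNA, which also holds their relative OASL, had 6 genes. All 4 tested were called higher, with a median of 1.92, beside 19.0% of all tested genes. OAS1 and OASL passed the threshold only through their spheroid signals, so that count is no support for a direction. OAS2, named after its values were seen, was under the threshold with no probe set called. Its brightest had signals of 39.8 and 24.5 in MCS and 19.9 and 60.3 in monolayers (-0.12 ± 0.44). OAS3, which makes the messenger 2-5A, had signals of 2856 and 2705 in MCS, against 682 and 607 in monolayers (2.06 ± 0.18, limma adjusted p = 4.5e-06). EIF2AK2 (PKR), the kinase that stops translation on double-stranded RNA, had signals of 3979 and 4055 in MCS, against 1893 and 1478 in monolayers. It differed by 1.25 ± 0.17 (limma, adjusted p = 1.27e-04) and by 0.40 with spike-in scaling, where the call was lost. OAS1 and OASL differed by 4.05 ± 0.35 and 1.77 ± 0.24, and the monolayer signals of OAS1 (4.74 and 27.5) were so low that the added constant of 32 limits its difference.

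Of the other sensors of DNA or endosomal RNA, all but DDX41 were under the threshold. DDX41 was the only one of 5 other cytosolic sensors that was tested, with signals of 2802 and 2349 in MCS and 2550 and 2477 in monolayers (0.029 ± 0.16, limma adjusted p = 0.9). CGAS, chosen after its values were seen, had signals of 149 and 67.5 in MCS and 81.2 and 78.4 in monolayers on its brightest probe set. Among the chaperone and adaptors of TLR7, TLR8 and TLR9, MYD88, which serves most Toll-like receptors, was higher by 0.73 ± 0.17 (limma, adjusted p = 0.00492; -0.12 with spike-in scaling). TICAM1 (TRIF), the adaptor of TLR3, had signals of 533 and 542 in MCS, against 196 and 417 in monolayers. Its difference of 0.83 ± 0.31 (limma, adjusted p = 0.0478; 0.038 with spike-in scaling) was not called without monolayer replicate 1 (0.34), spheroid replicate 1 (0.84) or spheroid replicate 2 (0.82).

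Of 13 tested regulators of RIGI and MAVS, 3 were higher and 3 lower, with a median of 0.21, shares close to the 19.0% higher and 20.6% lower among all tested genes. TRIM25 and RNF135, ubiquitin ligases that act on RIGI, differed by 0.61 ± 0.14 and 0.58 ± 0.18 (limma, adjusted p = 0.00453 and 0.0227), and ZC3HAV1 (ZAP), which binds viral RNA, by 0.60 ± 0.19 (limma, adjusted p = 0.0224). All 3 turned in sign with spike-in scaling, at -0.25, -0.26 and -0.25. The stress granule protein G3BP1 was lower on its brightest probe set (-0.52), as were PPP1CA (-0.43), a phosphatase subunit that acts on RIGI and IFIH1, and TOMM70 (-0.38), an import receptor that binds MAVS, the last pair named after their values were seen. With 1 array left out, RNF135 was not called without monolayer replicate 2 (0.48) or spheroid replicate 2 (0.53), and ZC3HAV1 not without monolayer replicate 1 (0.53) or spheroid replicate 2 (0.35). G3BP1 was not called without monolayer replicate 2 (-0.32) or spheroid replicate 1 (-0.48), and its 7 probe sets disagreed, with 4 above 0 and none called in the fit over all probe sets. The second brightest had signals of 2222 and 2590 in MCS and 2220 and 2282 in monolayers (0.091 ± 0.14). A second ZC3HAV1 probe set, with signals of 1922 and 2047 in MCS and 927 and 1019 in monolayers, differed more, by 1.01 ± 0.15 (limma, adjusted p = 0.00873 over all probe sets), and was at 0.16 and not called with spike-in scaling. PPP1CA was not called without either monolayer replicate (-0.42 and -0.45) or spheroid replicate 2 (-0.27), and TOMM70 lost its call with any array left out (-0.32 to -0.44).

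Partners of STING1 held 1 higher and 2 lower genes among 6 tested, with a median of 0.019. The shares among all tested genes were 19.0% higher and 20.6% lower. The ligase TRIM56 differed by 0.68 ± 0.23 (-0.15 with spike-in scaling), RNF26 by -0.63 ± 0.21 and TMEM203 by -0.52 ± 0.17 (limma, adjusted p = 0.033, 0.0292 and 0.0256). A second TRIM56 probe set differed more, with signals of 587 and 662 in MCS and 184 and 119 in monolayers. There the difference was 1.86 ± 0.28 (limma, adjusted p = 0.00892 over all probe sets), and 1.09 and not called with spike-in scaling. It was called without monolayer replicate 1 (2.12), but not without monolayer replicate 2 (1.60) or either spheroid replicate (1.94 and 1.78). RNF26 lost its call with any array left out (-0.55 to -0.71). TRIM56 was not called without monolayer replicate 1 (0.41) or either spheroid replicate (0.68 and 0.67), and TMEM203 not without either monolayer replicate (-0.49 and -0.55) or spheroid replicate 2 (-0.34).

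Adaptors and kinases shared with TBK1 held 2 higher and 2 lower genes among 9 tested, with a median of 0.18. These counts are close to the shares of all tested genes (19.0% higher and 20.6% lower). OPTN, a ubiquitin-binding partner and substrate of TBK1, had signals of 1897 and 1714 in MCS, against 463 and 397 in monolayers. It differed by 1.99 ± 0.20 (limma, adjusted p = 1.49e-05) and remained called with spike-in scaling (1.17). TRAF3, the ligase between MAVS and TBK1, had signals of 522 and 804 in MCS, against 1048 and 1136 in monolayers (-0.72 ± 0.23, limma adjusted p = 0.0241), whereas its dimmer probe set overlapped between the groups (-0.16 ± 0.28). CHUK (IKK alpha) was lower (-0.58 ± 0.16) and TRADD higher (0.65 ± 0.22, and -0.16 with spike-in scaling). TRAF3 was not called without monolayer replicate 2 (-0.67) or spheroid replicate 1 (-0.43), CHUK not without monolayer replicate 1 (-0.54) or spheroid replicate 1 (-0.47), and TRADD not without monolayer replicate 2 (0.55) or either spheroid replicate (0.73 and 0.57).

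Of the 4 transcription factors, 2 were higher and 0 lower, with a median of 0.63, beside 19.0% higher and 20.6% lower among all tested genes. IRF7, which amplifies interferon production, had signals of 2028 and 2012 in MCS, against 290 and 242 in monolayers (2.79 ± 0.20, limma adjusted p = 1.29e-06), and passed the threshold only through its spheroid signals. RELA, the p65 subunit of NF-kB, had signals of 3085 and 2432 in MCS, against 1589 and 1081 in monolayers (1.05 ± 0.21, limma adjusted p = 0.00169), and was at 0.20 and not called with spike-in scaling. Its second probe set differed by 0.40 ± 0.23 and was not called (limma, adjusted p = 0.419 over all probe sets).

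Enzymes that remove or edit cellular nucleic acid held 1 higher and 4 lower genes among 9 tested, with a median of -0.017. Among all tested genes 19.0% were higher and 20.6% lower. The lysosomal ribonuclease RNASET2 had signals of 4377 and 3249 in MCS, against 2035 and 1921 in monolayers (0.92 ± 0.17, limma adjusted p = 0.00128, and 0.067 with spike-in scaling). PNPT1 and SUPV3L1, which degrade mitochondrial RNA, differed by -0.49 ± 0.17 and -0.62 ± 0.19 (limma, adjusted p = 0.0348 and 0.0238). RNASEH2C and RNASEH2A, subunits of ribonuclease H2, differed by -0.60 ± 0.21 and -0.45 ± 0.16 (limma, adjusted p = 0.0374 and 0.0418), the second named after its value was seen. With 1 array left out, PNPT1 was not called without monolayer replicate 2 (-0.40) or spheroid replicate 1 (-0.27), and SUPV3L1 not without monolayer replicate 2 (-0.48) or spheroid replicate 2 (-0.54). RNASEH2C was not called without either monolayer replicate (-0.60 and -0.59) or spheroid replicate 2 (-0.41), and RNASEH2A not without either monolayer replicate (-0.42 and -0.47) or spheroid replicate 1 (-0.36).

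All measured interferon and chemokine genes downstream of the sensors were under the threshold, and none was called in the fit over all probe sets. IFNB1, which encodes interferon beta and was chosen after its values were seen, had signals of 3.45 and 7.91 in MCS and 8.14 and 1.88 in monolayers, all below the trp control of their array. IFNL1, an interferon lambda gene also chosen after its values were seen, had signals of 79.6 and 46.7 in MCS and 69.0 and 80.3 in monolayers. IFNL2 had signals of 107 and 115 in MCS and 68.7 and 51.3 in monolayers (0.64 ± 0.43, limma adjusted p = 0.506), and the chemokine CCL5 had 49.3 and 48.9 in MCS and 19.7 and 4.16 in monolayers (0.91 ± 0.37, limma adjusted p = 0.224), so that the spheroid arrays lay above the monolayer arrays for both. IFNA1 had 2.74 and 19.5 in MCS and 78.6 and 23.8 in monolayers, and the chemokine CXCL10 had 11.96 and 8.73 in MCS and 15.2 and 30.8 in monolayers, so that the spheroid arrays lay below for both. These 4 were also chosen after their values were seen. For CCL5 both monolayer arrays were at or below their trp control. For IFNA1 and CXCL10 both spheroid arrays and 1 monolayer array were. Such values are only bounds, so little can be read from the order of the arrays. Among all probe sets the spheroid arrays lay above for 27.9% and below for 19.7%. ISG15, a ubiquitin-like protein induced by interferon, was the only tested gene of that list, with signals of 28832 and 29646 in MCS, against 5544 and 5717 in monolayers (2.37 ± 0.11, limma adjusted p = 3.41e-08). Of 7 tested genes of interferon receptors and signalling, 3 were higher and 0 lower, with a median of 0.34. All tested genes had shares of 19.0% higher and 20.6% lower. IRF9, the DNA-binding subunit of the ISGF3 factor that acts on the response element, had signals of 2142 and 2448 in MCS, against 244 and 205 in monolayers (3.18 ± 0.21, limma adjusted p = 4.9e-07), and passed the threshold only through its spheroid signals. The kinase JAK1 differed by 0.89 ± 0.15 (limma, adjusted p = 5.59e-04; 0.036 with spike-in scaling). The receptor subunit IL10RB differed by 0.82 ± 0.21 (limma, adjusted p = 0.00792; -0.011 with spike-in scaling), and was not called without monolayer replicate 2 (0.66).

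The genes with the profiles most like those of the called members were found by Euclidean distance between log2 profiles over the 4 arrays, each centred on its monolayer mean. They were IL1RAP and EGR1 for IFIH1 (distances of 0.18 and 0.26), IER5L and CLDN3 for RIGI (0.28 and 0.32), SMOX and LMBR1L for STING1 (0.036 and 0.075), and TNFAIP8 and LINC00205 for ADAR (0.029 and 0.031). With 2 groups of 2 arrays, this likeness mostly reflects a similar size of difference.

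After the scaling to one average, 29.7% to 30.0% of probe sets were above 300 units in MCS and 27.5% to 28.3% in monolayers, with spike-in geometric means of 1113 to 1640 in MCS and 700 to 787 in monolayers and correlations across genes of 0.979 between MCS arrays and 0.984 between monolayer arrays. Of 8 epithelial and intestinal markers 6 had a mean over 300 units, and the intestinal factors CDX1 and CDX2 did not. CDH1 (1.73), CLDN4 (2.73) and ELF3 (2.74) were called higher in MCS in the fit over all probe sets. EPCAM, KRT8, KRT18, CDX1 and CDX2 were not called. The summed signal of 6 leukocyte markers was 381 to 399 in MCS and 167 to 247 in monolayers, with 0 of 6 over 300 units, and PTPRC, the defining leukocyte gene, had signals of 38.1 and 36.3 in MCS and 19.4 and 2.02 in monolayers. For 6 fibroblast markers it was 2413 to 2776 in MCS and 803 to 1098 in monolayers, with only COL1A1 over 300 units. COL1A1 made up most of that sum and was called higher in the fit over all probe sets (1.64), and the other fibroblast markers were not called. For 5 endothelial markers, with 0 over 300 units, it was 202 to 239 in MCS and 224 to 336 in monolayers. The 3′ to 5′ ratio of the ACTB controls, a sign of RNA quality, was 2.82 to 3.003 in MCS and 2.34 to 2.64 in monolayers, whereas that of GAPDH was 0.921 to 0.931 in MCS and 1.02 to 1.07 in monolayers. The part of these in the differences of the sensors was not tested.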

How the data were processed

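RNA of 4 HCT116 cultures (2 MCS, 2 monolayer) had been labelled as cRNA and put on Affymetrix U133 Plus 2.0 arrays, 1 colour, 1 array per culture. The deposited signal intensity, linear and 1 value per probe set, came from MAS5, which the authors used for normalization in a version that no source used here names. It sets all arrays to 1 trimmed mean (500.1 here), so a change in total mRNA per cell is lost. The authors' detection calls were not used. The log2(signal + 32) values, whose constant understates the change of dim genes, were compared two-sided in limma 3.58.1 (R 4.3.3; lmFit, then eBayes with trend) and adjusted by Benjamini-Hochberg. The fit across genes kept probe sets with a mean above 300 units and the brightest of each gene (8721 genes, median standard error 0.19). The other fit took all 54613 probe sets except controls. Both were also run on simulated data with independent errors, a simpler setting than these arrays, so that run is no support for the calls. The number of arrays limits the precision. With 1 array per culture, the p-values cover only the spread between cultures and between their arrays, which cannot be told apart. In limma the spread of each gene is drawn toward that of genes of similar signal. In the fit across genes it had 2 residual and 10.5 prior degrees of freedom. With 1 array left out the spread rests still more on other genes, so calls kept or lost there are a description only.

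Members and lists were chosen with earlier results of these data known. The rule for names took all members, at most 4 called genes per list, largest difference first (where a list had no call, its 2 lowest p-values), and 2 nearest genes per called member. Any other gene is marked as named after its values were seen. In the platform annotation 1801 probe sets had several symbols and 11721 were not listed, and neither were named. Alternatives covered the threshold, the constant, the scaling, the choice of probe sets, the trend, a replicate block, the t-test that the methods name for other assays and each array left out. The fit of all probe sets over 300 units was chosen after seeing the data. Start-site sequences are RefSeq's, build GRCh38.p14, and the array files name no build.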

Additional observations from a re-analysis of the deposited data

How the results depend on the processing

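Among the members, 4 were called higher and 0 lower under other thresholds, constants, quantile or median scaling, averaged probe sets and no trend, with these exceptions. A threshold of 100 units added TLR3 (5 higher), and no threshold lost STING1 (3 higher). Leaving out _x_at and _s_at probe sets removed ADAR from the test (3 higher). The genes tested in these settings numbered 11297, 19775 and 6094. The share of all genes called in each is not set beside these counts, so they are a description only. Spike-in scaling gave 2 higher and 1 lower (TBK1) among members, 7 higher and 16 lower among pathway genes and 169 higher and 4073 lower among all genes, against 4, 0, 19, 11, 1656 and 1799. The spike-in counts rest on p-values that are too certain, since the scaling error of an array is common to all genes. The methods' t-test called 0 members and 0 pathway genes in either direction and 1 higher and 1 lower of all genes after Benjamini-Hochberg adjustment. At its unadjusted threshold it called 3 members higher and 0 lower, 15 pathway genes higher and 6 lower, and 1218 genes higher and 1430 lower. The pathway genes called lower numbered 1 with no threshold and 6 with no trend, and all genes called lower numbered 1114 without _x_at and _s_at probe sets, where fewer genes were tested (6094). With 1 array left out, where the lone array is assumed to vary like the other group, 3 to 4 members were higher and 0 to 1 lower, 14 to 17 pathway genes were higher and 1 to 5 lower, and 1208 to 1502 genes were higher and 1362 to 1484 lower.

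With the replicate number as a block, 4 members were higher and 1 lower, TBK1 (limma, adjusted p = 0.0233), with 23 pathway genes higher and 13 lower and 2114 genes higher and 2301 lower. In the fit over all probe sets the block also called both brighter TLR3 probe sets (limma, adjusted p = 0.0455 and 0.0356), MAVS 229741_at (limma, adjusted p = 0.00571), STING1 224929_at (limma, adjusted p = 0.00741) and TBK1 (limma, adjusted p = 0.0421). Arrays with the same number deviated together from their group means (r = 0.323 across genes), but with 2 pairs and no label that ties them the numbers were not taken as pairs.

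Signs turned with spike-in scaling for MAVS (-0.71), ADAR (-0.28), DDX41 (-0.82), MYD88 (-0.12), TRIM25 (-0.25), ZC3HAV1 (-0.25), RNF135 (-0.26), TRIM56 (-0.15), TRADD (-0.16) and IL10RB (-0.011), and for the probe sets of DHX58 (-0.097), TLR3 242667_at (-0.26) and MAVS 220305_at (-0.80), 229741_at (-0.14) and 231829_at (-0.67). DDX41 turned with median scaling (-0.013), and TLR3 242667_at (-0.041) and MAVS 231829_at (-0.098) with quantile normalization. With 1 array left out, signs turned within ranges of -0.097 to 0.38 for MAVS (226495_at), -0.096 to 0.16 for DDX41, -0.15 to 0.26 for TLR3 242667_at, -0.075 to 0.17 for MAVS 220305_at and -0.16 to 0.36 for MAVS 231829_at. None of these but ADAR and the 7 pathway genes from MYD88 to IL10RB had been called. Of the other values of single genes, 513 kept their direction and side of the threshold, 128 lost a call and 3 gained one, and for probe sets the numbers were 125, 25 and 8. The causes were not tested. Signals near the trp controls (DHX58, TLR3 242667_at, IFIH1 216020_at) set the limit of what the arrays could measure.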
